A study of Homo sapiens with 8 samples.

Results

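The ZNF genes of human chromosome 19 are described here: protein-coding genes whose RefSeq symbol is ZNF followed by a number, with or without a closing letter, and whose locus lies on that chromosome. Of 240 such genes with a RefSeq mRNA model, the 150 that averaged 1 FPKM or more across the 4 groups are called the members. FPKM counts fragments per kilobase of model, scaled for sequencing depth, so levels can be set side by side between genes. The members were chosen on this measured level, summed over the mRNA models of each symbol, and their levels are therefore given as a description. By the same sum, 10212 genes of the whole table reached a mean of 1 FPKM, 181 of them ZNF genes of other chromosomes and 617 other genes of chromosome 19.

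The cells were NB4, a human acute promyelocytic leukaemia line that matures towards granulocytes under all-trans retinoic acid (ATRA). They carried a lentiviral short hairpin RNA against the transcription factor gene TFEB (shTFEB) or a scrambled hairpin (shScr), and received 1 µM ATRA or ethanol vehicle for 72 h. The 4 groups, each labelled with 2 biological replicates, are shTFEB under ATRA, shTFEB under vehicle, shScr under ATRA and shScr under vehicle, while the wild-type parental cells were not analysed here. The deposited tables give 1 value per group, so no spread between replicates could be computed, no test was run, and each difference below is a size without a replicate check. A change is counted where the log2 ratio, with 1 FPKM added above and below, is at least 1 in size; this 2-fold mark is a size, and "rose" and "fell" are used of such genes only.

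Relative to shScr vehicle, depth was 0.911 to 1.17, or roughly 55.6 to 71.7 M fragments a group, read from the spacing of the lowest values. TFEB itself stood at 8.44 FPKM in shTFEB and 19.4 FPKM in shScr cells under ATRA. Under vehicle it stood at 1.35 FPKM in shTFEB and 1.20 FPKM in shScr cells, so the lower TFEB level that the hairpin's label implies was seen under ATRA and not under vehicle; the vehicle group is called "labelled shTFEB" where the lines are compared. Of 8 promyelocytic and granulocytic genes, 7 were compared, and in both lines CEBPE rose while MPO, PRTN3, AZU1, CTSG and LYZ fell under ATRA; the neutrophil elastase gene ELANE was listed at 0 to 0.0456 FPKM. CD33, also compared, stayed under the mark in both lines. Red cell and platelet markers were close to absent, and of 7 only ITGA2B reached the mean of 1 FPKM. It had 2.75 FPKM under ATRA and 0.77 FPKM under vehicle in shTFEB cells, and 0.521 and 0.177 FPKM in shScr cells. Its log2 ratio under ATRA was 1.08 in shTFEB and 0.37 in shScr cells. Between the lines under ATRA it was 1.30, higher in shTFEB cells. Of 7 genes listed as lymphoid and 8 listed as non-blood, 4 and 3 reached the mean of 1 FPKM. Of the lymphoid markers, CD79A and NKG7 rose and CD3D and CD79B fell in both lines. NKG7 had 111 FPKM in shTFEB and 168 FPKM in shScr cells under ATRA. Of the genes listed as non-blood, PECAM1, which is not restricted to non-blood cells, rose in both lines. KRT18 had 27.2 FPKM in shTFEB and 29.7 FPKM in shScr cells under vehicle.

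Chromosome 19 carries a large collection of C2H2 zinc finger genes, arranged in tandem clusters that grew by gene duplication. Each C2H2 finger is a short fold held by a zinc ion that reads a few bases of DNA, and many of these proteins also carry a KRAB box at the amino end. The KRAB box recruits TRIM28 (KAP1), which brings in the histone methyltransferase SETDB1 and HP1 proteins, and the bound DNA, often a transposable element, is packed into silent chromatin.

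The promoters of the 5 members that passed the 2-fold mark in either line are shown here, because they are the genes on which the ATRA results turn. They span 250 bases before and 50 bases after the annotated start in RefSeq, on build GRCh38.p14, and are written 5′ to 3′ on the strand of the gene; the gene positions given further below are those of the deposited hg19 tables. Capitals mark matches, on either strand, to letters searched for in every promoter: CCGGAAG (the core of ETS factor sites), CACGTG (an E-box read by TFEB and MYC among others), ATGGCGG (YY1), GCATGCGC (NRF1) and AGGTCA (a site for nuclear receptors such as the retinoic acid receptors).
ZNF780A (chr19:40090894-40091193, minus strand): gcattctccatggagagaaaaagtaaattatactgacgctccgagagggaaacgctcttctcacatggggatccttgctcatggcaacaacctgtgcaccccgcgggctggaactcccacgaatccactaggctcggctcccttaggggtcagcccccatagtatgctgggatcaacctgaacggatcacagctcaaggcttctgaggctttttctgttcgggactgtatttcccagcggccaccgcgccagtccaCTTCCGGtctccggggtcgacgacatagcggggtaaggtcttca
ZNF226 (chr19:44164850-44165149, plus strand): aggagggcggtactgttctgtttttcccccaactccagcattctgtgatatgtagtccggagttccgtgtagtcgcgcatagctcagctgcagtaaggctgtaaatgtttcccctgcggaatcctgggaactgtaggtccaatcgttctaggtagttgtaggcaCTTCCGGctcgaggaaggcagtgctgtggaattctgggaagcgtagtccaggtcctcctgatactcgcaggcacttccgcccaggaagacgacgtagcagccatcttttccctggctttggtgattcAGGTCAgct
ZNF329 (chr19:58150740-58151039, minus strand): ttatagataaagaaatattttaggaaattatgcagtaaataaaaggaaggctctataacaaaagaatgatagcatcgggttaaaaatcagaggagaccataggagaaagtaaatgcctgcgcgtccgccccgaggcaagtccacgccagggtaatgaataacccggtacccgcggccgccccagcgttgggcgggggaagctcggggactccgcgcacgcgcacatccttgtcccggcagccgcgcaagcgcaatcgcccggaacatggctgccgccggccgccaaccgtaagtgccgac
ZNF146 (chr19:36214856-36215155, plus strand): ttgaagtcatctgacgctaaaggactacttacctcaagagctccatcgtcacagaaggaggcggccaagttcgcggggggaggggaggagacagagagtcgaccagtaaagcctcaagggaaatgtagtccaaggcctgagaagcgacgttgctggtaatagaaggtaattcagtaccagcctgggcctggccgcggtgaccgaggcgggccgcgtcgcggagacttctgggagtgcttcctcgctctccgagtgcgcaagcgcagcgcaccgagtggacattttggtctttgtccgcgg
ZNF121 (chr19:9584455-9584754, minus strand): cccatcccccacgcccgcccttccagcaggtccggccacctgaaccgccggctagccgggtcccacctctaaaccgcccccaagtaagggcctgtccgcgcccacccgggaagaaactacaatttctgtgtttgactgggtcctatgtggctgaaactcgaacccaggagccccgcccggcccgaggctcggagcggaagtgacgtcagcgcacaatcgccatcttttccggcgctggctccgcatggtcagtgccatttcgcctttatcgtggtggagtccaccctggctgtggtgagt
The promoters of ZNF780A and ZNF226 each held 1 match to the ETS letters, as their reverse complement CTTCCGG, and that of ZNF226 also held AGGTCA. Such a match is common, as the ETS letters lay in 47.8% of the members' promoters. None of the letters searched lay in the windows of ZNF121 and ZNF146, or in that of ZNF329, which also rose. This says nothing about other sites or other windows.

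Over 136 members with a RefSeq promoter, 65 (47.8%) held the ETS letters. The share was 40.6% in 160 promoters of ZNF genes elsewhere, 21.8% in 8487 promoters of all compared genes and 10.7% in all 27305 promoters of the table. The ETS letters were thus more frequent in ZNF promoters, on chromosome 19 and elsewhere, than in the promoters of compared genes, a difference that was not tested. The E-box was present in 4.41% of the members' promoters, against 7.50% for ZNF genes elsewhere, 10.6% for compared genes and 7.44% for all promoters. AGGTCA was present in 13.2% of the members' promoters, above the 6.88% of ZNF genes elsewhere and the 9.82% of compared genes but not above the 13.9% of all promoters. The YY1 letters were present in 8.82%, against 10.6%, 11.6% and 5.72% of the same 3 classes, and the NRF1 letters in 4.41%, against 8.75%, 6.27% and 3.27%. CpG pairs, which all of these letters except AGGTCA contain, had a median of 20 per promoter in members, 25 in ZNF genes elsewhere and 26 in compared genes. A match is a stretch of letters and not a site shown to be bound.

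The members were genes of low level. Their mean FPKM had a median of 2.28 and quartiles of 1.56 and 3.71, against a median of 4.54 for ZNF genes elsewhere, 12.3 for other genes of chromosome 19 and 12.2 for all compared genes. A mean of 1 to 2 FPKM was found for 64 members, 2 to 5 FPKM for 62, 5 to 10 FPKM for 18 and at least 10 FPKM for 6. At least 1 FPKM was found in all 4 groups for 134 members, the other 16 were lower in some group, and none was listed at 0. Just inside the limit were ZNF790 (mean 1.00 FPKM), ZNF554 (1.00) and ZNF529 (1.04), and just outside it ZNF566 (0.995), ZNF805 (0.982) and ZNF615 (0.975). The 90 ZNF genes outside had a median mean of 0.454 FPKM, and 7 of them were listed at 0 in every group.

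ZNF317 was the most abundant member by its mean over the groups (hg19 chromosome 19, 9251056 to 9274091). It had 30.9 FPKM under ATRA and 34.2 FPKM under vehicle in shTFEB cells, and 23.9 and 28.5 FPKM in shScr cells. ZNF266 (9523102 to 9546254) had 34.2 FPKM under ATRA and 24.2 FPKM under vehicle in shTFEB cells, and 34.4 and 24.0 FPKM in shScr cells. Both encode KRAB zinc finger proteins, and they moved in opposite directions, with log2 ratios of −0.14 and −0.25 for ZNF317 and 0.48 and 0.50 for ZNF266 in shTFEB and shScr cells. ZNF121, ZNF146 and ZNF561 followed, with means of 20.6, 18.9 and 18.8 FPKM. The order of ZNF317 and ZNF266 (means of 29.4 and 29.2 FPKM) turned on the treatment, since ZNF266 was higher than ZNF317 in both ATRA groups and lower in both vehicle groups.

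The summed level of the 150 members differed little between the groups: 569 FPKM under ATRA and 567 FPKM under vehicle in shTFEB cells, and 511 and 546 FPKM in shScr cells. Single members were also steadier over the 4 groups than most genes. The highest group was a median of 1.44 times the lowest in members, against 1.51 times in ZNF genes elsewhere, 1.75 times in all compared genes and 1.95 times in compared genes under 5 FPKM. It was at least 2 times the lowest in 24 members (16%), against 22.1% of ZNF genes elsewhere and 46.3% of genes under 5 FPKM. In whole-culture RNA, fewer cells of a type and less RNA per cell cannot be told apart.

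Under ATRA, few members changed in either line. In shTFEB cells 2 members rose (ZNF780A and ZNF226) and none fell, which is 1.33% of the members, while 21.6% of all 10212 compared genes passed the mark (1171 higher and 1030 lower). In shScr cells 2 members rose (ZNF780A and ZNF329) and 2 fell (ZNF146 and ZNF121), which is 2.67% of the members against 27.2% of all compared genes (1255 higher and 1524 lower, or 1468 and 1112 after rescaling by the median of ratios). The same rescaling gave 4 members higher and 2 lower in shScr cells, ZNF226 and ZNF44 being added. With 0.1 FPKM added in place of 1 FPKM, 4 members were higher and 1 lower in shTFEB cells (1315 and 1299 of all compared genes), and 5 higher and 7 lower in shScr cells (1462 and 1797). Adding 1 FPKM shrinks the ratios of low genes, so the members were also set beside the 2499 compared genes with a mean under 5 FPKM: of those, 23.3% passed the mark in shTFEB and 24.7% in shScr cells, and of the 126 members under 5 FPKM 2 did in each line. ZNF genes of other chromosomes lay between, with 7 higher and 4 lower of 181 in shTFEB cells and 9 higher and 9 lower in shScr cells. The difference between these classes was not tested.

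**Figure D1:**
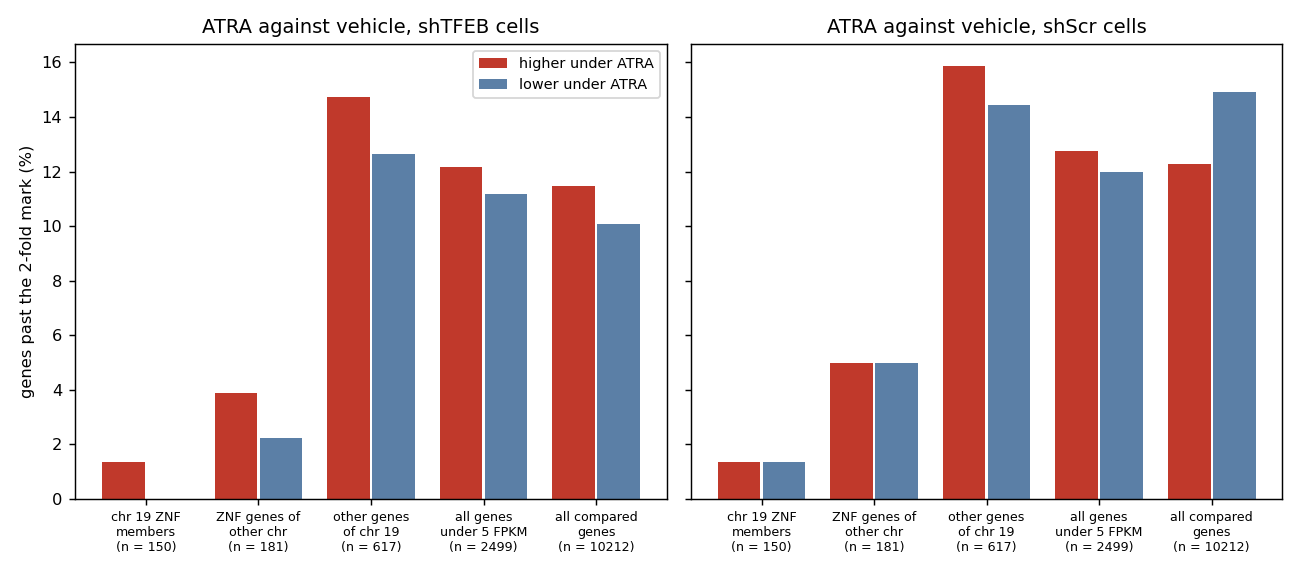
Share of genes past the 2-fold mark under ATRA against vehicle (vertical axis, per cent of the class), in shTFEB cells (left) and shScr cells (right), with red bars for higher and blue bars for lower. Members of chromosome 19 have the lowest bars in both lines, ZNF genes of other chromosomes the next lowest, and other genes of chromosome 19 exceed 12% in each direction.

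The members' median log2 ratio under ATRA was 0.06 in shTFEB cells, where 83 of 150 were above 0, and −0.04 in shScr cells, where 71 of 150 were. Medians over all compared genes were −0.13 and −0.16. The members' medians thus lay 0.19 and 0.12 above those of all genes, but not above those of genes of like level in both lines: under 5 FPKM the medians were 0.05 for members and −0.04 for all compared genes in shTFEB cells, and −0.05 and −0.01 in shScr cells. With the groups rescaled by the median of ratios, the all-gene medians became 0.00 in both lines, the members' medians 0.16 and 0.09, and the distances between them 0.16 and 0.09. The members' middle 50% lay between −0.22 and 0.23 in shTFEB cells and between −0.34 and 0.20 in shScr cells. For all compared genes the same limits were −0.57 and 0.35, and −0.68 and 0.40.

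ZNF146 had the lowest log2 ratio among the members with 1 FPKM added (hg19 chromosome 19, 36705504 to 36729675, 3 mRNA models). Also called OZF, it encodes a protein made up almost wholly of zinc fingers, of which 10 were found. Its level was 13.0 FPKM under ATRA and 25.8 FPKM under vehicle in shTFEB cells, and 9.91 and 26.9 FPKM in shScr cells. Both ATRA groups were lower than both vehicle groups, with log2 ratios of −0.94 in shTFEB and −1.36 in shScr cells, so it passed the mark in shScr cells alone. By the plain ratio of ATRA over vehicle in shScr cells, ZNF57 (0.329) and ZNF569 (0.354), both of low level, were below ZNF146 (0.368). The span of ZNF146 overlaps that of ZNF565, and whether the counting used strand is not given in the sources used here.

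ZNF121 (9676292 to 9695209) had 17.4 FPKM under ATRA and 28.1 FPKM under vehicle in shTFEB cells, and 10.8 and 26.0 FPKM in shScr cells. The log2 ratio was −0.66 in shTFEB and −1.20 in shScr cells, and the difference of 0.54 between these responses was the largest positive one among the members with 1 FPKM added. In each of the 4 groups its FPKM lay above the upper bound deposited beside it, such as 17.4 against 16.7 in shTFEB ATRA, so those bounds cannot be read as an interval around the value. Neither ZNF146 nor ZNF121 matched the KRAB pattern.

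ZNF780A (40575059 to 40596845) was the member that rose in both lines. Its level was 6.15 FPKM under ATRA and 2.35 FPKM under vehicle in shTFEB cells, and 6.97 and 2.60 FPKM in shScr cells, which gives log2 ratios of 1.09 and 1.15. The gene has 4 mRNA models, and the highest model of each group, which in shTFEB cells was not the same model under ATRA and under vehicle, gave 0.60 and 0.90, under the mark. The adjacent ZNF780B (40534167 to 40562115), also a KRAB gene, went the same way: 2.77 FPKM under ATRA and 1.46 FPKM under vehicle in shTFEB cells, and 2.78 and 1.57 FPKM in shScr cells. Its log2 ratios of 0.62 and 0.56 did not reach the mark.

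ZNF226 (44669215 to 44681838), a KRAB gene with 17 fingers found, had 4.89 FPKM under ATRA and 1.90 FPKM under vehicle in shTFEB cells, and 4.55 and 1.98 FPKM in shScr cells. Its log2 ratios were 1.02 and 0.90, on either side of the mark. ZNF329 (58637695 to 58662148) had 2.37 FPKM under ATRA and 1.26 FPKM under vehicle in shTFEB cells, and 3.75 and 1.23 FPKM in shScr cells. The vehicle values of ZNF329 were close together and the ATRA values apart, with log2 ratios of 0.58 and 1.09 and a difference of responses of −0.51. For all 5 of these members the bounds of the ATRA and the vehicle group, summed over mRNA models, did not overlap in either line. Bounds were likewise apart for 80.6% of all compared genes in shTFEB and 83.7% in shScr cells. The 5 were picked by the size of their ratios, so this is no separate support.

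**Figure D2:**
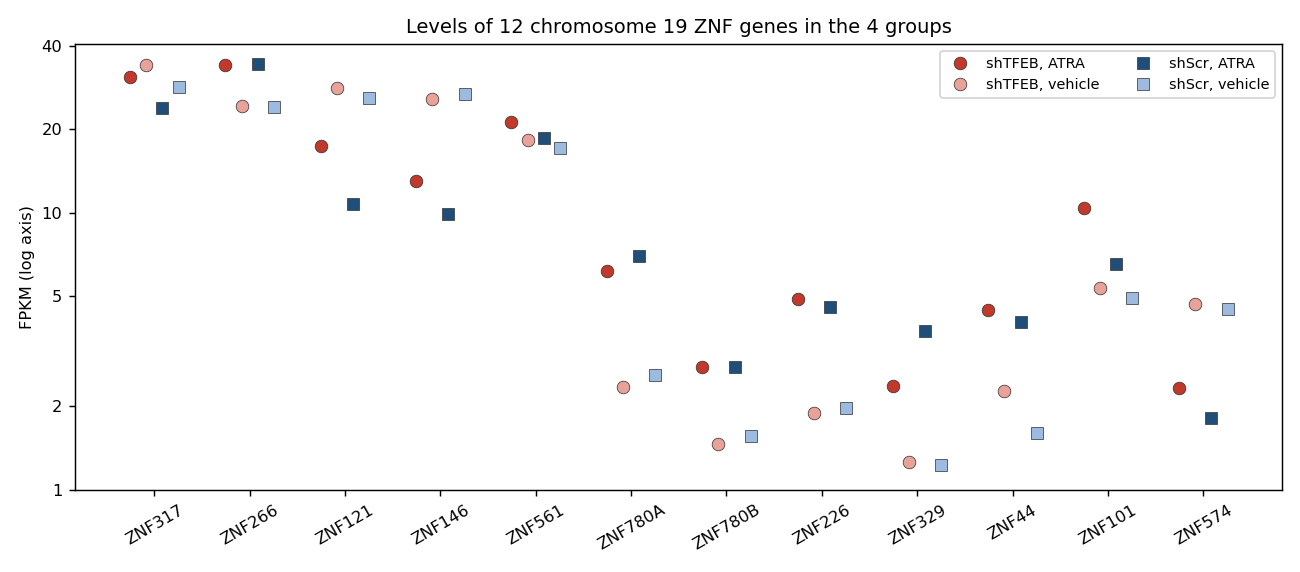
Level in FPKM (log axis) of 12 members in the 4 groups: shTFEB as circles and shScr as squares, ATRA dark and vehicle pale. ATRA groups lie below vehicle groups for ZNF121, ZNF146 and ZNF574 and above them for ZNF780A, ZNF780B, ZNF226, ZNF329 and ZNF44; ZNF101 is highest in shTFEB ATRA at 10.4 FPKM.

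The next members by size stayed under the mark in both lines. ZNF44 had 4.45 FPKM under ATRA and 2.28 FPKM under vehicle in shTFEB cells, and 4.03 and 1.60 FPKM in shScr cells (log2 ratios of 0.73 and 0.95). ZNF574 had 2.34 and 4.69 FPKM in shTFEB cells, and 1.82 and 4.49 FPKM in shScr cells (−0.77 and −0.96). Among the other higher members, log2 ratios in shTFEB and shScr cells were 0.75 and 0.66 for ZNF564, 0.49 and 0.85 for ZNF846, 0.39 and 0.72 for ZNF414, 0.61 and 0.36 for ZNF700, and 0.62 and 0.51 for ZNF552. Of these, ZNF564 shares 67.0% of its 50-base transcript stretches with another gene, so its value is uncertain. ZNF700 and ZNF552 share 18.1% and 14.2%. Lower values were −0.80 and −0.65 for ZNF584, −0.67 and −0.34 for ZNF558, −0.58 and −0.58 for ZNF428, and −0.55 and −0.42 for ZNF649. Lower values of larger size in shScr cells were those of ZNF57 (−0.49 and −0.92), ZNF766 (−0.49 and −0.86), ZNF616 (−0.50 and −0.82), ZNF569 (−0.46 and −0.73) and ZNF614 (−0.45 and −0.70). ZNF473 encodes ZFP100, a factor of histone pre-mRNA processing; its level was 2.11 FPKM under ATRA and 3.73 FPKM under vehicle in shTFEB cells, and 1.88 and 3.45 FPKM in shScr cells (−0.61 and −0.63).

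Some members were picked for a known role, with their values already seen. They stayed under the mark, which only 1.33% of all members passed in shTFEB and 2.67% in shScr cells. ZNF274, which binds the ends of zinc finger genes and recruits SETDB1 there, had 7.98 FPKM under ATRA and 6.58 FPKM under vehicle in shTFEB cells, and 7.53 and 6.06 FPKM in shScr cells. ZNF91 represses SVA retrotransposons and had 6.70 and 4.78 FPKM in shTFEB cells, and 5.48 and 4.55 FPKM in shScr cells. ZNF93 represses LINE-1 elements and had 5.13 and 5.15 FPKM in shTFEB cells, and 5.11 and 5.96 FPKM in shScr cells. These 3 members lay within log2 ratios of −0.19 to 0.41. ZNF331, an imprinted gene, had 1.32 FPKM under ATRA and 2.03 FPKM under vehicle in shTFEB cells, and 1.35 and 2.21 FPKM in shScr cells (−0.39 and −0.45).

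The 2 lines gave like values for most members. The log2 ratio had the same sign in both lines in 126 of 150 members (84.0%), 65 higher and 61 lower, against 90.9% of all compared genes. Across the 150 members the ratios of the lines correlated with Pearson's r of 0.90 and Spearman's rho of 0.89, as a description over genes, which are not independent replicates; over all 10212 genes r was 0.91. ZNF524 (−0.63), ZNF121 (0.54), ZNF329 (−0.51) and ZNF101 (0.49) had the largest differences between the responses with 1 FPKM added, given here as shTFEB minus shScr. ZNF101 had 10.4 FPKM under ATRA and 5.36 FPKM under vehicle in shTFEB cells, and 6.51 and 4.91 FPKM in shScr cells (log2 ratios of 0.84 and 0.35). ZNF524 had 1.99 and 2.26 FPKM in shTFEB cells, and 2.93 and 1.76 FPKM in shScr cells (−0.12 and 0.51), so its 2 responses had opposite signs. The next on the positive side were ZNF480 (0.46), ZNF57 (0.44) and ZNF146 (0.42), and on the negative side ZNF581 (−0.36), ZNF333 (−0.35) and ZNF846 (−0.35). Under the 2-fold mark, no member differed between the responses, against 2.87% of all compared genes.

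**Figure D3:**
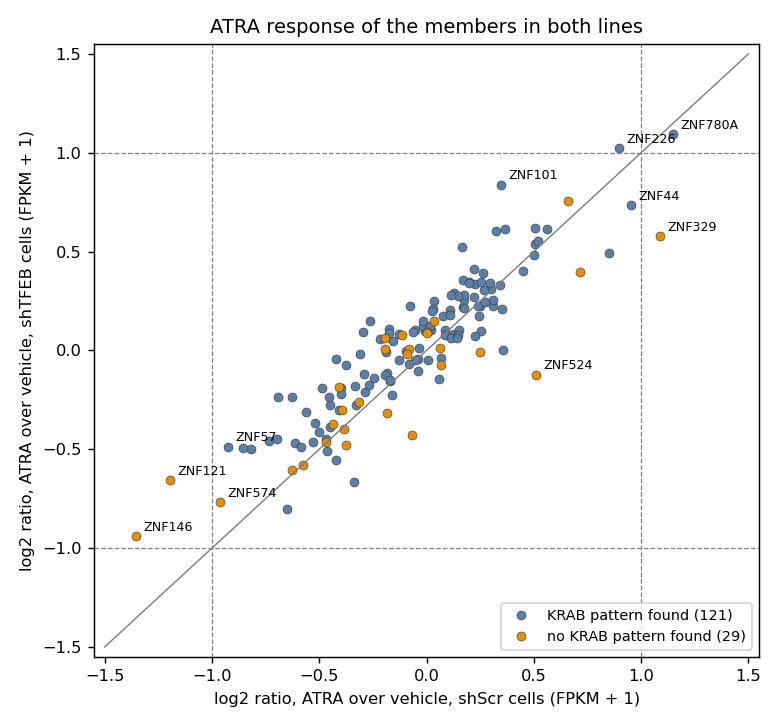
Log2 ratio of ATRA over vehicle for each of the 150 members in shScr cells (horizontal axis) and in shTFEB cells (vertical axis), coloured by whether the KRAB pattern was found. Points follow the line of equal values; dashed lines give the 2-fold mark, passed by ZNF780A in both lines, by ZNF226 in shTFEB cells, and by ZNF329, ZNF146 and ZNF121 in shScr cells.

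Between the hairpins, no member passed the mark. Under vehicle, the members of the cells labelled shTFEB had a median log2 ratio of 0.02 over shScr cells, with a range of −0.29 to 0.63, while 0.999% of all compared genes passed. ZNF358 was at the upper end, with 4.10 FPKM in labelled shTFEB and 2.31 FPKM in shScr cells, and ZNF100 at the lower end, with 5.23 and 6.63 FPKM. Of the 50-base transcript stretches of ZNF358, 18.4% occur in another gene, which makes its value less certain. Between them, ZNF558, ZNF44, ZNF649 and ZNF846 had log2 ratios of 0.28 to 0.38, and ZNF443, ZNF439, ZNF93 and ZNF790 of −0.23 to −0.18.

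Under ATRA the members leaned towards shTFEB cells, by small amounts. The median log2 ratio was 0.10 with a range of −0.50 to 0.65, none passed the mark (3.31% of all compared genes did), and 117 of 150 members (78.0%) were above 0, against 59.9% of all compared genes and 49.6% of those under 5 FPKM. The size of the lean depends on how the groups are scaled. After rescaling by the median of ratios 104 members (69.3%) were above 0, against 51.3% of all compared genes. After rescaling by the upper quartile 89 members (59.3%) were, against 45.9%. The members' share was thus above that of all compared genes under each scaling, a difference that was not tested. ZNF121 (0.65) and ZNF101 (0.60) had the largest values. ZNF480 had 4.74 FPKM in shTFEB and 3.22 FPKM in shScr cells, and ZNF57 and ZNF426 had log2 ratios of 0.42 and 0.41. ZNF329 (−0.50), ZNF333 (−0.41), ZNF524 (−0.39), ZNF100 (−0.25) and ZNF581 (−0.21) were the lowest. Over the 150 members, the hairpin difference under ATRA and that under vehicle, which share no sample, correlated with r of 0.21 and rho of 0.22, as a description.

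The bounds deposited beside the FPKM give another view of the same sizes. They were summed over the mRNA models of each symbol, as the FPKM were. For the 52 members with several models, such a sum is not a bound deposited for the gene. For members they did not overlap between ATRA and vehicle in 51.3% in shTFEB cells (40 above and 37 below) and in 56.7% in shScr cells (35 above and 50 below). The shares over all compared genes were 80.6% and 83.7%. They were 69.1% and 72.8% over compared genes with a mean under 5 FPKM, and 63.0% and 67.4% over ZNF genes elsewhere. Between hairpins, bounds were apart in 7.33% of members under vehicle (39.1% of all genes) and in 20% under ATRA (27 above and 3 below; 57.6% of all genes). Under vehicle and ATRA these shares were 29.1% and 39.8% for compared genes under 5 FPKM, and 24.3% and 37.6% for ZNF genes elsewhere. What level of confidence these bounds stand for is not given in the sources used here.

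Along the chromosome the 240 ZNF genes fell into 20 clusters when genes no more than 0.5 Mb apart were joined. They are numbered from the start of the short arm, and 18 hold a member. The 8 clusters with at least 5 members hold 134 of the 150. Cluster 3 (hg19, 8575462 to 9879410) had 12 members of 13 genes, cluster 4 (11594242 to 12740676) 16 of 25, and cluster 6 (19779663 to 24312769), next to the centromere, 24 of 33. On the long arm, cluster 10 (36673187 to 38270230) had 14 of 26, cluster 13 (44037340 to 45004574) 9 of 23, cluster 18 (52074531 to 54083523) 25 of 37, cluster 19 (55987699 to 57183123) 7 of 16, and cluster 20 (57702868 to 58992597) 27 of 43. The share of genes that reached 1 FPKM thus ran, over these 8, from 39.1% in cluster 13 to 92.3% in cluster 3.

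Cluster 3 stood apart by level. Its members had a median mean of 9.99 FPKM, against 4.37 in cluster 19, 3.79 in cluster 6, 2.26 in cluster 4, 2.03 in cluster 18, 1.73 in cluster 13, 1.70 in cluster 20 and 1.35 in cluster 10. It held ZNF317, ZNF266, ZNF121 and ZNF561, and its 12 members made up 28.0% of the summed mean FPKM of all 150. The sum over cluster 3 was 160 FPKM under ATRA and 165 FPKM under vehicle in shTFEB cells, and 140 and 147 FPKM in shScr cells. The low median of cluster 10 went with a single abundant gene, ZNF146. The most abundant members elsewhere were ZNF675 in cluster 6 (mean 8.88 FPKM), ZNF700 in cluster 4 (8.23), ZNF428 in cluster 13 (7.35), ZNF274 in cluster 20 (7.04), ZNF787 in cluster 19 (6.13) and ZNF480 in cluster 18 (4.89).

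**Figure D4:**
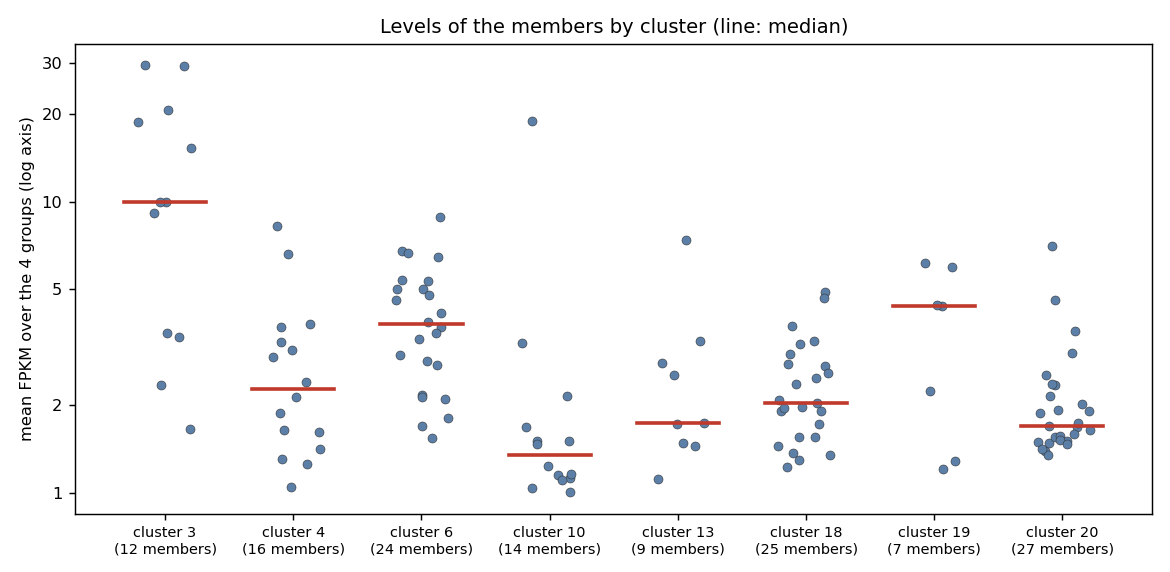
Mean FPKM over the 4 groups (log axis) of each member in the 8 clusters with at least 5 members; red lines are medians. Cluster 3 has the highest median at 9.99 FPKM, and cluster 10 the lowest at 1.35 FPKM with ZNF146 far above the rest.

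Under ATRA none of the 8 clusters with at least 5 members moved as a block. Their medians ran from −0.37 to 0.21 in shTFEB cells and from −0.13 to 0.17 in shScr cells, while the SD among members of a cluster ran from 0.20 to 0.48 and from 0.29 to 0.57. All 8 clusters held members above and below 0 in both lines. Among these 8, cluster 13, with ZNF226, had the highest median in both lines (0.21 and 0.17), and 6 and 5 of its 9 members were above 0. Consecutive members of a cluster were weakly alike: over 132 pairs of next neighbours Pearson's r was 0.24 in shTFEB and 0.18 in shScr cells, as a description of pairs that share genes.

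Cluster 19 was the lowest of the 8 in shTFEB cells, with a median of −0.37 and 1 of 7 members above 0, against −0.07 and 3 of 7 in shScr cells. Its members are ZNF579, ZNF524, ZNF784, ZNF580, ZNF581, ZNF787 and ZNF444, and the KRAB pattern was found in none of them. ZNF581 had 4.89 FPKM under ATRA and 6.93 FPKM under vehicle in shTFEB cells, and 5.82 and 6.15 FPKM in shScr cells. ZNF444 had 3.82 and 5.34 FPKM in shTFEB cells, and 3.57 and 4.96 FPKM in shScr cells. ZNF444 was lower under ATRA in both lines, with log2 ratios of −0.40 and −0.38, and ZNF581 had −0.43 and −0.07. After rescaling by the median of ratios, 2 and 4 of the 7 members were above 0 in shTFEB and shScr cells. Joining genes up to 1 Mb apart instead put these genes into a larger cluster, and the lowest median among clusters with at least 5 members in shTFEB cells was then −0.04.

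Under ATRA the lean towards shTFEB cells was seen in 16 of 16 members of cluster 4, with log2 ratios of 0.06 to 0.34, and in 24 of 25 members of cluster 18. It was seen in 9 of 12 members of cluster 3, 15 of 24 of cluster 6 and 9 of 14 of cluster 10. In clusters 13, 19 and 20 it was seen in 7 of 9, 4 of 7 and 21 of 27. Of all compared genes 59.9% were above 0. After upper-quartile rescaling the counts were 13 of 16 in cluster 4 and 18 of 25 in cluster 18. For clusters 3, 6 and 10 they were 8 of 12, 10 of 24 and 7 of 14. For clusters 13, 19 and 20 they were 5 of 9, 2 of 7 and 16 of 27. The share of all compared genes was then 45.9%. Differences between clusters were not tested.

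Of the 16 members outside these 8 clusters, the pair ZNF780B and ZNF780A (cluster 11) had both values above 0 in both lines, with medians of 0.85 and 0.85. In cluster 12, ZNF574 was lower under ATRA while its neighbour ZNF526 had log2 ratios of −0.02 and −0.09 in shTFEB and shScr cells. The most abundant members of the small clusters were ZNF57 (mean 1.73 FPKM), ZNF358 (3.35), ZNF333 (2.65), ZNF507 (3.07), ZNF302 (6.89), ZNF296 (1.25), ZNF114 (4.59) and ZNF473 (2.79). ZNF333, alone in its cluster, had 2.34 FPKM under ATRA and 2.34 FPKM under vehicle in shTFEB cells, and 3.44 and 2.47 FPKM in shScr cells.

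The clusters also enclose genes with other names, and some of these changed strongly beside members that did not. Inside the spans of the clusters lie 30 other compared genes, of which 8 passed the mark in shTFEB cells (6 higher and 2 lower, 26.7%) and 9 in shScr cells (6 higher and 3 lower, 30%). These shares are close to the 27.4% and 30.3% of other genes of chromosome 19, so the count does not set the enclosed genes apart, and the 8 named here were picked because they passed the mark in both lines. In cluster 18, FPR2, a formyl peptide receptor of neutrophils, had 2.90 FPKM under ATRA and 0.0513 FPKM under vehicle in shTFEB cells, and 13.2 and 0.113 FPKM in shScr cells. Its relative FPR1 had 2.31 and 0.00980 FPKM in shTFEB cells, and 3.21 and 0.0577 FPKM in shScr cells. The nearest member to both is ZNF649, 119 kb from FPR2, at log2 ratios of −0.55 and −0.42 where FPR2 had 1.89 and 3.68. SIGLEC5 and SIGLEC14, closely similar genes for sialic acid-binding receptors of myeloid cells whose fragments the counting could split, had log2 ratios of 1.65 and 2.23, and of 2.24 and 2.82. ZNF175, which ends 21.8 kb before SIGLEC5, had 2.22 FPKM under ATRA and 2.05 FPKM under vehicle in shTFEB cells, and 2.11 and 1.93 FPKM in shScr cells (0.08 and 0.09).

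Other clusters also enclosed genes that passed the mark in both lines. In cluster 3, MYO1F, a myosin of granulocytes, had 377 FPKM under ATRA and 76.7 FPKM under vehicle in shTFEB cells, and 317 and 60.9 FPKM in shScr cells. ZNF414, 6.6 kb away, had 11.2 and 8.30 FPKM in shTFEB cells, and 12.9 and 7.49 FPKM in shScr cells. Both were higher under ATRA, MYO1F by log2 ratios of 2.28 and 2.36 and ZNF414 by 0.39 and 0.72. In cluster 13, PLAUR, the urokinase receptor gene, rose (1.43 and 1.61) while ZNF428, 26.2 kb away, was lower (−0.58 and −0.58). KCNN4, a potassium channel gene of the same cluster, fell to 0.111 FPKM under ATRA against 4.84 FPKM under vehicle in shTFEB cells, and to 0.145 against 5.17 FPKM in shScr cells, and ZNF283, 46.1 kb away, had log2 ratios of −0.10 and −0.04. INSR, the insulin receptor gene in cluster 2, fell in both lines (−1.42 and −1.44).

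**Figure D5:**
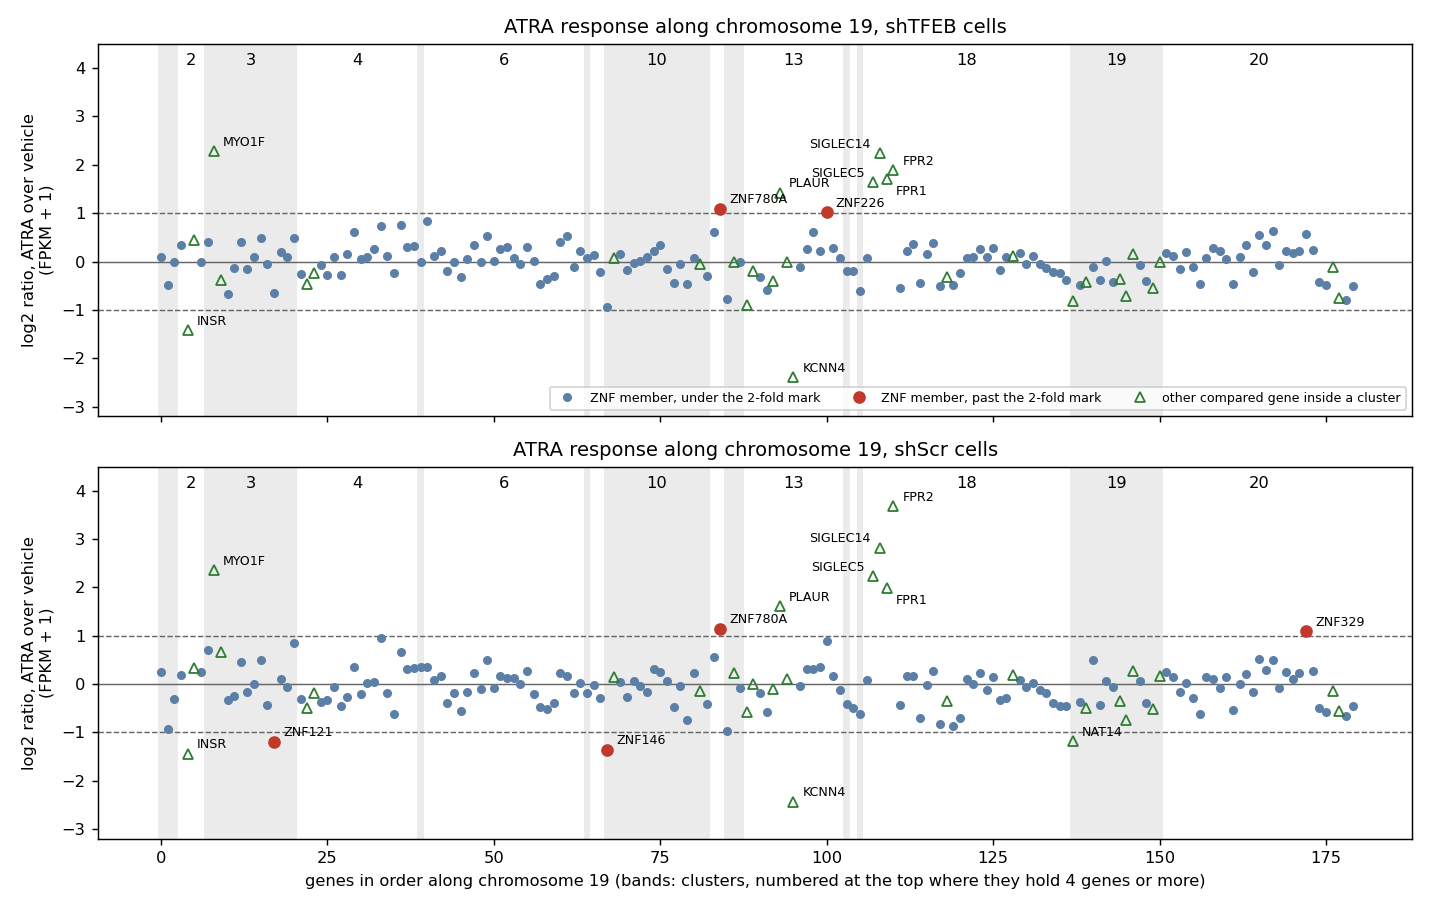
Log2 ratio of ATRA over vehicle for the 150 members (circles) and the 30 other compared genes inside the clusters (triangles), in order along chromosome 19, for shTFEB cells (top) and shScr cells (bottom); shaded and white bands are clusters. Members lie between the dashed 2-fold lines with the labelled exceptions, while FPR1, FPR2, SIGLEC5, SIGLEC14, MYO1F and PLAUR lie above and KCNN4 and INSR below in both lines.

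The proteins of the members carried 1 to 32 C2H2 fingers by a pattern search, with a median of 12, and 121 members matched a KRAB pattern. The 121 with the pattern had a median level of 2.03 FPKM and the 29 without it 3.24 FPKM. Under ATRA the median log2 ratio of members with the pattern was 0.09 in shTFEB and 0.01 in shScr cells, and of those without it −0.12 and −0.19. Above 0 were 72 of 121 members with the pattern in shTFEB and 61 of 121 in shScr cells, and 11 of 29 and 10 of 29 without it. Of the 5 members past the mark, ZNF780A and ZNF226 matched the pattern, and ZNF146, ZNF121 and ZNF329 did not. The pattern misses altered KRAB boxes, so the 29 are members in which it was not found. By number of fingers, the 39 members with fewer than 10 had medians of −0.12 and −0.16, the 64 with 10 to 14 had 0.08 and 0.00, and the 47 with 15 or more had 0.09 and 0.01.

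The genes of the KRAB partner list, which take part in silencing at the targets of these proteins, had medians below that of all compared genes under ATRA. Of 30 genes on the list 29 were compared, and without rescaling none rose. Over all 10212 compared genes, 1171 rose in shTFEB and 1255 in shScr cells. In shTFEB cells 3 fell, a share close to the 10.1% of all compared genes that fell there, and in shScr cells 7 fell, where 14.9% of all compared genes did. The list's medians were −0.28 and −0.49, against −0.13 and −0.16 over all compared genes. TRIM28 had 51.5 FPKM under ATRA and 99.4 FPKM under vehicle in shTFEB cells, and 44.7 and 92.6 FPKM in shScr cells (−0.94 and −1.04). It was lower under ATRA in both lines and passed the mark in shScr cells. SETDB1 had 12.3 and 11.6 FPKM in shTFEB cells, and 14 and 12 FPKM in shScr cells (0.07 and 0.21). The demethylase gene KDM1A (−1.29 and −1.37), the DNA methyltransferase gene DNMT3B (−2.49 and −1.87) and UHRF1 (−1.12 and −1.04), which brings DNMT1 to copied DNA, fell in both lines. CBX3, which encodes HP1 gamma (−0.71 and −1.10), and the methyltransferase gene EHMT2 (−0.89 and −1.05) passed the mark in shScr cells alone, and SUV39H2 was listed at 0 in shScr ATRA, against 3.52 FPKM in shScr vehicle.

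Others of that list stayed under the mark: ATF7IP, CBX1, CBX5, CHD3, CHD4, HDAC1, HDAC2, RCOR1, MPHOSPH8, TASOR, PPHLN1, MORC2, ATRX, DAXX, DNMT1, DNMT3A, SUV39H1, EHMT1, SMARCAD1, MORC3 and SUMO2. MORC3 came closest to rising, with 19.8 FPKM under ATRA and 9.43 FPKM under vehicle in shTFEB cells, and 19.6 and 9.96 FPKM in shScr cells (1.00 after rounding, and 0.91). ATF7IP2 was below the mean of 1 FPKM. All calls of this list were made without rescaling. Rescaling by the median of ratios divides shScr values by 0.923 under ATRA and 1.05 under vehicle. For shTFEB values the divisors are 0.969 and 1.07. Each ATRA ratio is raised by this, so calls near the mark depend on the scaling. Among them are those of TRIM28, CBX3, EHMT2, UHRF1 and MORC3. Of 21 zinc finger genes of chromosome 19 with other names, such as ZFP30 and ZBTB7A, 20 were in the tables and 7 were compared, and none passed the mark in any comparison.

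Sequence shared between these duplicated genes limits how their fragments can be told apart. A median of 2.76% of a member's 50-base transcript stretches occurred in another gene, and 33 members shared at least 10%, led by ZNF177 (86.8%, with a readthrough gene), ZNF320 (75.2%) and ZNF564. Shares were low in the members past the mark, at 4.90% for ZNF780A, 1.75% for ZNF329, 0.672% for ZNF226, 0.659% for ZNF121 and 0 for ZNF146. Other members named above had higher shares, such as ZNF443 (37.7%), ZNF358 and ZNF581 (18.4% each), ZNF700 (18.1%) and ZNF552 (14.2%). The spans of 12 members overlap another RefSeq symbol. Of 52 members with several mRNA models, the most abundant model differed between ATRA and vehicle in 17 in shTFEB cells and in 11 in shScr cells, in the same way in ZNF430, ZNF473, ZNF549, ZNF580 and ZNF611. ZNF549, for example, had 1 model listed at 0 under ATRA in both lines, at 0.896 FPKM under vehicle in shTFEB and 0.776 FPKM in shScr cells, while its sum gave log2 ratios of 0.06 and 0.14.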

How the data were processed

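RNA of NB4 cells was sequenced from TruSeq libraries after RNeasy extraction, per the labels' protocols. The FPKM values are those of the authors: the submitters' processing notes name TopHat, Cufflinks, Cuffdiff and hg19, whose versions are not given in the sources used here. Per the file headers, each of the 4 deposited tables holds 1 FPKM per transcript model and group, a status and a lower and an upper bound; how the 2 samples of a group were combined is not stated. The titles of both shScr ATRA samples also carry the word vehicle, and the treatment field set their group.

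FPKM were summed over RefSeq mRNA models per symbol (33714 of 34445 accessions matched, 97.9%, in a RefSeq table of GRCh38.p14 used for names). Genes with a mean of at least 1 FPKM were compared as log2 ratios after adding 1 FPKM to each value, with no further scaling. Members and gene lists were chosen with earlier results of these data known. ZNF genes no more than 0.5 Mb apart formed a cluster; clusters with at least 5 members were compared.

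Named members are the 8 largest log2 ratios each way per ATRA response, the 5 largest each way per hairpin comparison and for the difference of responses, the 5 most abundant, the most abundant of each cluster, and the 3 nearest the limit on either side. Fingers, KRAB patterns (first 250 residues of the longest protein) and shared 50-base stretches came from GENCODE release 29, and promoters from RefSeq. Depth was read from values under 0.1 FPKM. The FPKM lay within its deposited bounds for 96.7% to 97.9% of the members' models with at least 0.5 FPKM. Calculations used Python 3.11.15, pandas 2.3.3 and numpy 2.4.6, and were tested on simulated data. Alternatives were other pseudocounts, filters, scalings, model sums and cluster gaps.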

Additional observations from a re-analysis of the deposited data

How the results depend on the processing

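No paired analysis was possible because the deposited tables hold 1 value per group, and leaving out a replicate could not be run for the same reason. A pseudocount of 0.1 FPKM gave 4 members higher and 1 lower under ATRA in shTFEB cells and 5 higher and 7 lower in shScr cells (1315 and 1299, and 1462 and 1797, of all compared genes), and one of 5 FPKM gave 0 higher in shTFEB cells, and 0 higher and 1 lower in shScr cells. With a mean of at least 5 FPKM required, 24 members remained, 0 of them higher in either line, and their median in shTFEB cells was 0.18. Either rescaling gave 4 higher in shScr cells, ZNF226 and ZNF44 being added, and the median of ratios moved the shScr median to 0.094. The highest model of each group gave 1 higher in each line, without ZNF780A. Leaving out members that overlap another symbol, an alternative chosen after the data were seen, removed ZNF146 and left 1 lower in shScr cells.

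For clusters, a gap of 1 Mb gave a highest median of 0.066 in shScr and a lowest of −0.040 in shTFEB cells. In shTFEB cells cluster medians ran from −0.47 to 0.31 with a pseudocount of 0.1 FPKM and from −0.14 to 0.085 with 5 FPKM, and in shScr cells from −0.018 to 0.31 after median-of-ratios rescaling. The causes were not tested. The other 205 counts and medians under alternatives stayed within 1.5 times or 0.1 of the reported value, and no member past the mark changed sign. Median-of-ratios rescaling moved the all-gene median in shScr cells from −0.16 to 0.00, and the higher share of all genes past the mark from 45.2% to 56.9%. Counting error at these depths, and the spread between replicates, could not be given for single members.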
